A study of Mus musculus with 40 samples.

Results

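The 10 genes described here encode the proteins of pulmonary surfactant and the machinery of the alveolar type 2 cell, the epithelial cell that makes surfactant. They were listed by symbol: Sftpa1, Sftpb, Sftpc, Sftpd, Abca3, Lamp3, Napsa, Slc34a2, Lpcat1 and Etv5. Of these, 9 were measured, among the 18194 genes that had a probe set carrying 1 gene symbol. Lamp3, a lysosomal membrane protein found on the lamellar bodies of these cells, has no value here, since its probe set also carries the symbol Ppid. Each gene was read on 1 probe set, the one with the highest mean log2 signal over all 40 arrays.

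Surfactant is a film of phospholipid and protein that lowers surface tension at the air-liquid interface of the alveolus and so keeps it from collapsing when air is breathed out. Alveolar type 2 cells import its main lipids into lamellar bodies, cut its hydrophobic proteins out of larger precursors there, and secrete both together. The hydrophilic surfactant proteins are collectins, which bind sugars on microbes and take part in innate defence.

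RNA came from whole lung, kidney and heart of male C57BL/6 mice, with no further genotype or treatment named in the labels. There were 8 groups of 5 arrays: lung and kidney of mice aged 1, 4 or 8 weeks, and heart of mice aged 1 or 4 weeks. In the labels 1 week stands for rapid, 4 weeks for slow and 8 weeks for very slow proliferation, so the comparison of ages asks how the genes differ as juvenile growth slows. Whole organs were used, so a value reflects all cells of the organ, and fewer cells of a type and less RNA per cell cannot be told apart. Precision is limited by how few arrays each group holds.

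The labelled organ was checked first, on these genes and on the cardiac myosin gene Myh6, and 2 of the 40 arrays went against their label. On the array labelled lung 1 wk replicate 4 the signal of Sftpc was 1982, against 23330 to 28920 for the remaining 4 of its group, and the other 8 measured genes were likewise below the rest of their group. Myh6 was 36020 on this array, against 611 to 1868 on the remaining 4. On the array labelled heart 1 wk replicate 5 Sftpc was 27190 and Myh6 was 2396, against 36520 to 44800 for Myh6 in the rest of its group. Both arrays were left out, which leaves 38, of which 14 are lung (4, 5 and 5 by age), 15 kidney and 9 heart (4 and 5). With both kept as labelled, 0 of the 9 genes passed the test in any lung comparison of ages. The lowest limma adjusted p was then 0.0832, for Abca3 from 1 to 8 wk, and the changes over that interval were larger, at 1.84 for Sftpa1 and 0.84 for Sftpc on the log2 scale. They kept the direction given below for 8 of the 9 genes, while Etv5 turned from -0.13 to 0.35.

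Promoters are shown first, for 3 of the 7 genes, of the 10, that the table of promoters holds. The sequences are the 250 bases before the start of the gene in RefSeq on the GRCm38.p6 build, read 5′ to 3′ on the strand of the gene. Capitals mark matches, on either strand, to 4 short words: CTCAAG, the core bound by the lung regulator NKX2-1; TGTTTNC, a forkhead word; GGAAGT, an ETS word; and TATAAA, the TATA box. The promoters of Sftpa1 (chr14:41131538-41131787, plus strand) and Sftpb (chr6:72304360-72304609, plus strand) are printed because they hold the NKX2-1 word, and that of Abca3 (chr17:24351773-24352022, plus strand) because it holds none of the 4 words.
Sftpa1 promoter: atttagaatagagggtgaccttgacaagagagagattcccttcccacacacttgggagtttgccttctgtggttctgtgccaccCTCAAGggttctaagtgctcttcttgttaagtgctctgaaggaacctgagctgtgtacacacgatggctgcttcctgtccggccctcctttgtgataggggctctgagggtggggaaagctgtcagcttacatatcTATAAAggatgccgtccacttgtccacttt
Sftpb promoter: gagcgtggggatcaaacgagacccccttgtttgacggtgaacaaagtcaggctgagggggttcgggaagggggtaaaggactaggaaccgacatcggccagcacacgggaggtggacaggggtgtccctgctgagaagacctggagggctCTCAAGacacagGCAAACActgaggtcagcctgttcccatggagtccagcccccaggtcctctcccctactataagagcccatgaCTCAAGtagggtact
Abca3 promoter: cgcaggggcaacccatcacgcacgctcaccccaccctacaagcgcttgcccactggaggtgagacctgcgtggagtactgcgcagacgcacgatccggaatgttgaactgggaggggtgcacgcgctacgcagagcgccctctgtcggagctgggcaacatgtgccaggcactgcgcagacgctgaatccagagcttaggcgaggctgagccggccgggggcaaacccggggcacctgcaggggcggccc
In Sftpa1 the NKX2-1 word starts at -166 and the TATA box at -30, counted from the first base of the gene. Sftpb holds the NKX2-1 word at -100 and at -15, and between them at -88 the forkhead word on the opposite strand, printed as GCAAACA; no 2 matches overlap. Of the other promoters in the table, Lamp3 holds the forkhead word at -162 and -92, 1 of 2 Etv5 promoters holds the ETS word at -217 and the other the forkhead word at -183, and those of Slc34a2 and Lpcat1 hold none. Among 32851 promoter windows of the same length, 13.3% hold the NKX2-1 word, 17.8% the forkhead word, 19.7% the ETS word and 12.4% the TATA box. A match is a description of letters and not a binding site, and the arrays hold no measure of binding.

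Between 1 and 4 weeks 6 of the 9 genes rose in lung, none fell, and Sftpc, Lpcat1 and Etv5 did not pass the test. Among all 13814 genes tested in lung, 19.9% were higher and 19.7% lower at 4 weeks. The median log2 change of the 9 genes was 0.37 and that of all tested genes -0.01. All arrays of 4 wk lay above all of 1 wk for 3 of the 9 genes, and for 16.5% of all genes tested. Changes are later minus earlier age on the scale of log2(signal + 16), with the SE from limma, and adjusted p-values are Benjamini-Hochberg values over all genes tested, with a threshold of 0.05. From 4 to 8 weeks 1 of the 9 genes, Abca3, was higher, against 0.898% of all genes, and 1.13% of all genes were lower. The median change was 0.01 for the 9 genes and -0.01 for all. The arrays of 8 wk lay wholly above those of 4 wk for Abca3 alone of the 9, and for 2.69% of all genes.

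**Figure D1:**
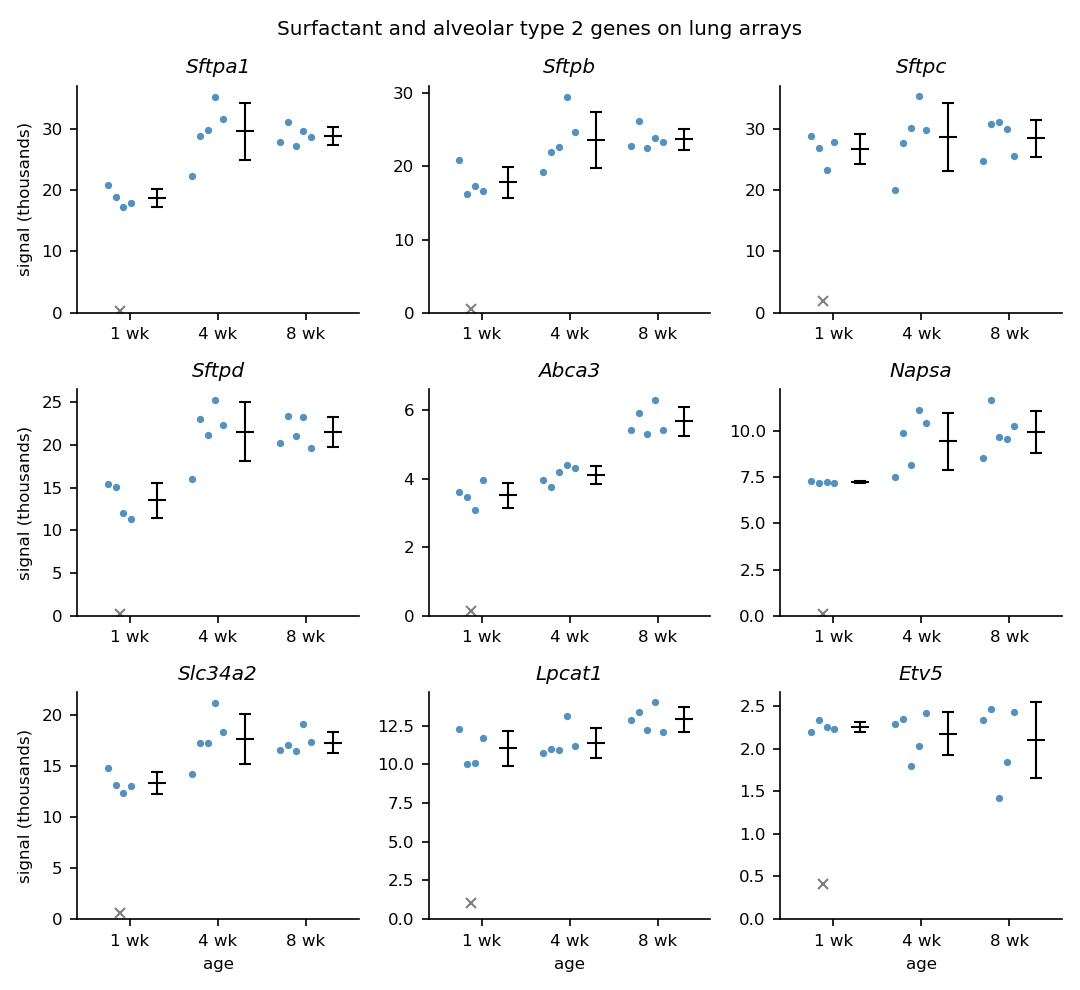
Signal (k, arbitrary units) on each lung array (blue points) at 1, 4 and 8 wk, with the mean and SD of the arrays used beside them, for the 9 measured genes; the grey cross is the array left out. Sftpa1 and Sftpd step up between 1 and 4 wk and level off, Abca3 is highest at 8 wk, and Sftpc and Etv5 overlap at all ages.

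Sftpa1 encodes surfactant protein A, the most abundant collectin of surfactant, read on probe set 1422334_a_at. Its signals were 20810, 18890, 17300 and 17860 at 1 wk, 22370, 28870, 29810, 35260 and 31640 at 4 wk, and 27920, 31090, 27250, 29580 and 28630 at 8 wk. All 10 arrays of the later ages lay above all 4 of 1 wk, while the later ages overlapped each other. Sftpa1 rose by 0.65 on the log2 scale from 1 to 4 wk (SE 0.11, limma adjusted p = 3.13e-04), which is 1.57-fold. From 4 to 8 wk its change was -0.02 (SE 0.10). The second probe set of the gene, 1429626_at, which lies at lower signals, gave 1.12 from 1 to 4 wk and 1.08 from 1 to 8 wk, both past the threshold.

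Sftpd encodes surfactant protein D, the other surfactant collectin, read on probe set 1420378_at. Its signals were 15460, 15120, 12070 and 11340 at 1 wk, 16020, 23080, 21130, 25260 and 22280 at 4 wk, and 20220, 23410, 21040, 23290 and 19680 at 8 wk. Again every later array exceeded every array of 1 wk, although replicate 1 of 4 wk was only slightly above the highest of them. Sftpd rose by 0.67 from 1 to 4 wk (SE 0.13, limma adjusted p = 9.18e-04), or 1.59-fold, and its change from 4 to 8 wk was 0.01 (SE 0.12). The pair of collectin genes thus had the largest changes of the 9 in this step. In RefSeq (GRCm38.p6) Sftpa1 and Sftpd lie on the same chromosome with 1 gene between them, Mbl1, which encodes a mannose-binding lectin of the same family. In lung Mbl1 had signals of 156 ± 101 (SD, n = 4), 187 ± 27.1 (n = 5) and 158 ± 49.8 (n = 5) at the 3 ages, near the level of 117.9 that a gene needed to be tested.

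Sftpb encodes surfactant protein B, a small hydrophobic protein without which lamellar bodies do not form properly, read on probe set 1437028_at. Its signals were 20920, 16270, 17360 and 16660 at 1 wk, 19250, 21950, 22660, 29540 and 24650 at 4 wk, and 22810, 26140, 22510, 23870 and 23290 at 8 wk. Replicate 1 of 1 wk stood above the other 3 and overlapped the lowest array of 4 wk, while all arrays of 8 wk lay above those of 1 wk. Sftpb rose by 0.40 from 1 to 4 wk (SE 0.11, limma adjusted p = 0.0115), and its change from 4 to 8 wk was 0.02 (SE 0.11). The rise was 1.32-fold.

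Sftpc encodes surfactant protein C, the hydrophobic protein most specific to alveolar type 2 cells, read on probe set 1418639_at. Its signals were 28920, 26970, 23330 and 27850 at 1 wk, 20100, 27670, 30220, 35380 and 29840 at 4 wk, and 24750, 30860, 31140, 30040 and 25660 at 8 wk. The 3 ages overlapped, and the lowest and the highest lung array were both of 4 wk. The log2 change was 0.08 from 1 to 4 wk (SE 0.14, limma adjusted p = 0.691) and 0.01 from 4 to 8 wk (SE 0.13). Sftpc was among the brightest probe sets of the lung arrays, ranking between 3 and 26 of 45101, and the highest signal of any probe set on those arrays ranged from 27167 to 41466; whether so bright a signal can still follow a rise was not tested. The other probe set of Sftpc, 1438290_x_at, had group means of 142, 162 and 88.8 and did not pass the test in any step.

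The changes of the other genes were also set against that of Sftpc on the same array, as a description chosen after the values were seen. From 1 to 4 wk the change of Sftpa1 exceeded that of Sftpc by 0.57, that of Sftpd by 0.59, and those of Sftpb and Slc34a2 by 0.32 each. Lpcat1 differed from Sftpc by -0.03 and Etv5 by -0.13. Abca3 exceeded it by 0.15 and Napsa by 0.29. These differences have no test, and they share the brightness of Sftpc given above.

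Abca3 encodes the transporter that loads phospholipid into lamellar bodies, read on probe set 1451731_at. Its signals were 3606, 3459, 3075 and 3955 at 1 wk, 3952, 3754, 4196, 4393 and 4300 at 4 wk, and 5427, 5909, 5297, 6302 and 5429 at 8 wk. All arrays of 8 wk lay above all arrays of both earlier ages, which touched each other near their borders. The log2 change from 4 to 8 wk was 0.46 (SE 0.08, limma adjusted p = 0.0125), or 1.38-fold, and that from 1 to 8 wk was 0.69 (SE 0.08, limma adjusted p = 1.57e-05), or 1.61-fold. The call from 4 to 8 wk held when any 1 lung array of 4 or 8 wk was left out. Leaving out an array of 1 wk was not tried for it. It was lost on the mean over all probe sets of the gene (0.34, adjusted p = 0.109) and in 1 fit of all 38 arrays (adjusted p = 0.279). The smaller change from 1 to 4 wk, 0.23 (SE 0.08, limma adjusted p = 0.0459), was less stable. It lost its call without any 1 of 7 of the 9 arrays (all but 1 wk replicate 5 and 4 wk replicate 2), with adjusted p-values up to 0.152. A second probe set of Abca3, 1425496_at, gave 0.34 from 4 to 8 wk (adjusted p = 0.197) and 0.55 from 1 to 8 wk (adjusted p = 0.00283) in a limma fit of all probe sets.

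**Figure D2:**
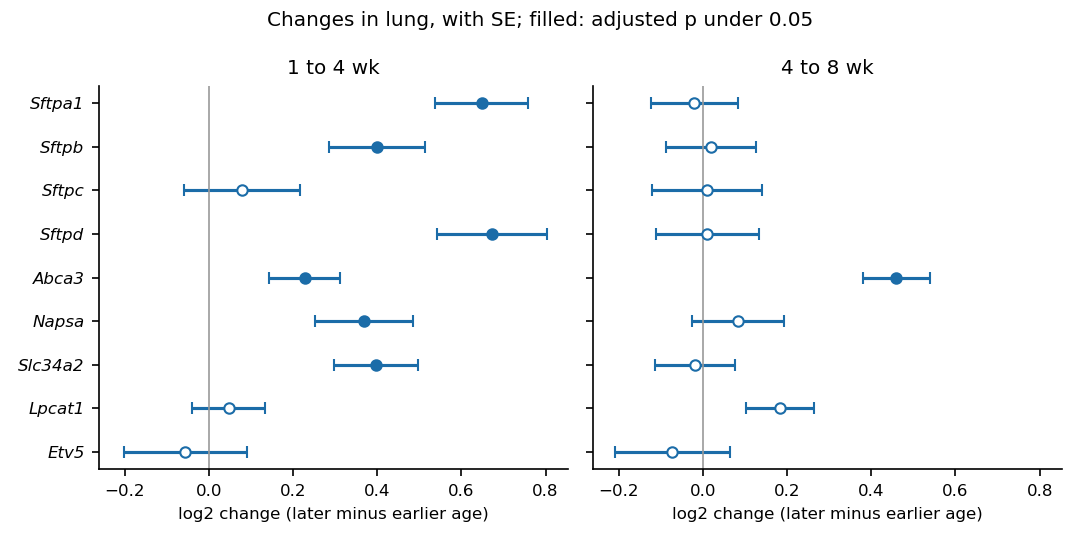
Log2 change of each gene in lung from 1 to 4 wk and from 4 to 8 wk, with its SE from limma; filled circles passed an adjusted p of 0.05. In the first step 6 genes are filled, from 0.23 (Abca3) to 0.67 (Sftpd), and in the second Abca3 alone, at 0.46.

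Relative to Abca3 on the same array, the changes of the other 8 genes from 4 to 8 wk were all smaller, from -0.28 for Lpcat1 to -0.53 for Etv5. This comparison too was chosen after the values were seen and has no test.

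Napsa encodes napsin A, an aspartic protease that takes part in cutting the precursors of surfactant proteins B and C, read on probe set 1423590_at. Its signals were 7290, 7162, 7234 and 7188 at 1 wk, 7494, 9893, 8171, 11120 and 10430 at 4 wk, and 8510, 11660, 9654, 9553 and 10240 at 8 wk. The 4 arrays of 1 wk lay close together and below every later array. Napsa rose by 0.37 from 1 to 4 wk (SE 0.12, limma adjusted p = 0.0211), or 1.29-fold; without 4 wk replicate 4 or replicate 5 the adjusted p was 0.0521 or 0.0524. From 1 to 8 wk it rose by 0.45 (SE 0.12, limma adjusted p = 0.00592). The dimmer probe set 1430744_at rose by 0.96 and 1.16 over the same intervals.

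Lpcat1 encodes an acyltransferase that remodels phosphatidylcholine to the saturated form enriched in surfactant, read on probe set 1424460_s_at. Its signals were 12280, 10040, 10100 and 11700 at 1 wk, 10710, 10990, 10920, 13110 and 11190 at 4 wk, and 12830, 13400, 12200, 13990 and 12110 at 8 wk. Replicate 4 of 4 wk stood above the other 4 arrays of its age, and the arrays of 8 wk overlapped the highest of 1 wk. The change was 0.05 from 1 to 4 wk (SE 0.09, limma adjusted p = 0.704) and 0.23 from 1 to 8 wk (SE 0.09, limma adjusted p = 0.0431). The latter call was lost without 1 wk replicate 2 or 3 or without 8 wk replicate 1, 2 or 4, with adjusted p-values of 0.0638 to 0.127. It was also not made, in a limma fit of all probe sets, on 1424459_at (0.29, adjusted p = 0.109) and 1451359_at (0.10, adjusted p = 0.323). On the mean over all probe sets of the gene the change was 0.00 and was not called. That mean gives equal weight to dim probe sets. Of these, 1420293_at had lung means of 305 to 373 and a change of -0.27 (limma adjusted p = 0.42). The other, 1420294_at, had lung means of 46.0 to 74.7, too low for a test.

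Slc34a2 encodes the sodium-phosphate cotransporter through which alveolar type 2 cells take up phosphate, read on probe set 1416854_at. Its signals were 14810, 13200, 12360 and 13010 at 1 wk, 14260, 17270, 17260, 21210 and 18360 at 4 wk, and 16560, 17060, 16520, 19130 and 17340 at 8 wk. The lowest array of 4 wk fell within the range of 1 wk, and all arrays of 8 wk lay above it. Slc34a2 rose by 0.40 from 1 to 4 wk (SE 0.10, limma adjusted p = 0.00586), or 1.32-fold, and its change from 4 to 8 wk was -0.02 (SE 0.09).

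Etv5 encodes an ETS transcription factor that acts downstream of FGF signalling and helps to maintain the alveolar type 2 state, read on probe set 1428142_at. Its signals were 2195, 2333, 2250 and 2226 at 1 wk, 2290, 2351, 1798, 2029 and 2417 at 4 wk, and 2338, 2465, 1426, 1848 and 2426 at 8 wk. The 4 arrays of 1 wk lay within a narrow range, and the later ages spread around it in both directions. The log2 change was -0.06 from 1 to 4 wk (SE 0.15, limma adjusted p = 0.796) and -0.13 from 1 to 8 wk (SE 0.15, limma adjusted p = 0.512). The other probe sets of the gene, 1420998_at and 1450082_s_at, gave -0.20 and -0.13 from 1 to 8 wk and did not pass the test.

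Over the whole interval from 1 to 8 wk 7 of the 9 genes were higher, against 22% of all genes tested, and none was lower, against 21.9%. For 6 of them all arrays of 8 wk lay above all arrays of 1 wk, as they did for 18% of all genes tested. The median log2 change was 0.42, against -0.02 over all tested genes. Sftpa1, Sftpb, Sftpd and Slc34a2 had changes from 0.38 to 0.68 over this interval and from -0.02 to 0.02 in its second step. With quantile normalization of the arrays the counts were again 6 from 1 to 4 wk and 7 from 1 to 8 wk. In 1 fit of all 38 arrays, whose shared spread includes the kidney and heart arrays, the counts over these intervals were 1 and 3. Sftpa1 was called from 1 to 4 wk and from 1 to 8 wk, and Sftpd and Abca3 from 1 to 8 wk alone.

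Within an age the genes other than Etv5 also varied together from array to array. After the mean of each age was removed, the correlation across the 14 lung arrays was above 0 for all 28 pairs that leave out Etv5, with a median of 0.72 and a range of 0.25 to 0.93. Of the 8 pairs with Etv5, 5 were below 0, and the median was -0.06. Over all 36 pairs 31 were above 0, with a median of 0.63, and the split by Etv5 was not planned. The arrays share their platform and scaling, and no test was made of these correlations.

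**Figure D3:**
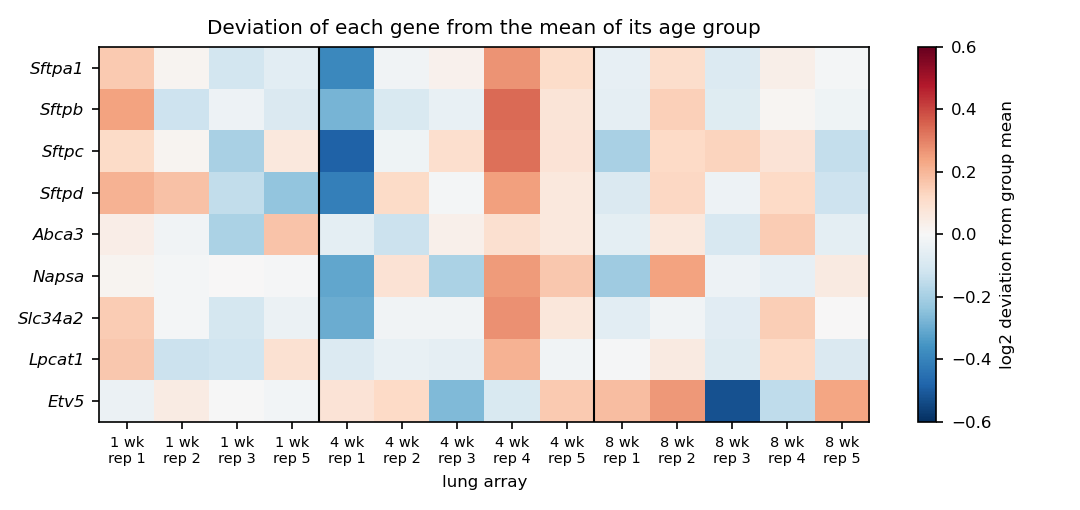
Log2 deviation of each of the 9 genes (rows) from the mean of its age group on the 14 lung arrays (columns); black lines divide the ages. Replicate 1 of 4 wk is blue and replicate 4 of 4 wk red in most rows, and Etv5 follows neither.

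On 4 wk replicate 1 only Etv5 was above the mean of its group, and the mean deviation of the 9 genes was -0.25. On 4 wk replicate 4, 8 of the 9 were above, with a mean deviation of 0.21. The highest signal of any probe set was 27167 on the first of these arrays and 41466 on the second, the lowest and the highest such maximum among the 14 lung arrays, and the part of array brightness in these deviations was not tested. The summed signal of the 9 genes made up 0.339% to 0.402% of all signal on the arrays of 1 wk, 0.384% to 0.547% at 4 wk and 0.455% to 0.509% at 8 wk. For Etv5 the array farthest from its group was 8 wk replicate 3, at -0.52.

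Other cell types of the lung moved over the same interval, in which 22% of all genes tested were higher and 21.9% lower. Between 1 and 8 wk 13 of 18 alveolar type 1 markers were higher and 1 lower, and their summed signal was 91680 to 98780 at 1 wk, 121500 to 158700 at 4 wk and 126500 to 147900 at 8 wk. Of 14 general epithelial markers 8 were higher and 1 lower, with sums of 21240 to 22070, 27600 to 31050 and 27150 to 33440. These sums were higher at both later ages on every array, as for Sftpa1 and Sftpd. Of 19 airway markers 14 were higher and none lower, of 14 macrophage markers 12 were higher and none lower, and of 15 endothelial markers 8 were higher and none lower. Of 17 fibroblast and myofibroblast markers 12 were lower and 4 higher, and their summed signal was 175200 to 198000 at 1 wk and 111000 to 123600 at 8 wk. From 4 to 8 wk, the step in which Abca3 rose, 8 of the fibroblast markers were lower, and of the type 1, airway and general epithelial markers none was higher and 1 was lower. Over all genes tested in that step 0.898% were higher and 1.13% lower. The part of these shifts in the changes of the surfactant genes was not tested. The difference between the 3′ and 5′ probe sets of beta-actin, a sign of RNA integrity, overlapped between the ages, at 0.36 to 0.46, 0.36 to 0.54 and 0.39 to 0.55 on the log2 scale. That of Gapdh also overlapped, with a lower mean at 8 wk: -0.15 ± 0.10 (SD, n = 4), -0.18 ± 0.05 (n = 5) and -0.30 ± 0.10 (n = 5); its part in the changes was not tested.

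Lists of related genes were also described in lung, to be read against the 22% of all genes that were higher from 1 to 8 wk and the 21.9% that were lower. The lists share some genes, among them Scd1, Elovl1, Fabp5 and Ctsh, so their counts are not independent. Of 34 other genes known from alveolar type 2 cells, 24 were higher and 1 lower from 1 to 8 wk, with a median of 0.42; from 1 to 4 wk 21 were higher and 3 lower, and from 4 to 8 wk 1 and 1. Kcnj15, a potassium channel, rose by 2.01 (SE 0.14, limma adjusted p = 4.62e-08), from a signal of 481 ± 108 (SD, n = 4) to 1964 ± 213 (n = 5). Mlc1, a membrane protein, rose by 1.61, the acyl-CoA oxidase-like gene Acoxl by 1.43, and Cd74, the invariant chain of MHC class II, by 1.39. Cd74 is also expressed by macrophages and other immune cells. Not every bright gene of this list moved: Cxcl15, a chemokine of lung epithelium, had signals of 20690 ± 503 (n = 4) at 1 wk and 21750 ± 926 (n = 5) at 8 wk, and was not called. It is named here after its values were seen.

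Of 31 genes of lipid synthesis and its control, not all of them specific to surfactant phospholipid, 20 were higher from 1 to 8 wk and none was lower. Their median was 0.47. From 1 to 4 wk 17 were higher and none lower, and the median change from 4 to 8 wk was 0.11. The phosphatidate phosphatase genes Lpin2 and Lpin1 rose by 1.63 and 1.31 from 1 to 8 wk. Scd1, a fatty acid desaturase, rose by 1.35, from 8879 ± 1610 (n = 4) to 22540 ± 2740 (n = 5), and Fasn, fatty acid synthase, by 1.17 (limma adjusted p = 0.00113), from 3118 ± 513 (n = 4) to 7405 ± 3286 (n = 5). On 8 wk replicate 3 Fasn was 13060, against 5222 to 7439 on the other 4 arrays of that age, and Acaca, Elovl6, Me1 and Dgat2, also of fatty acid and lipid synthesis, were likewise highest there (Elovl6 2496, against 368 to 793). Etv5 was lowest on this array. Without it, a comparison added after the values were seen, Fasn rose by 0.94 (SE 0.16, limma adjusted p = 4.8e-04), and 20 of the 31 genes were again higher, with a median of 0.35. Pcyt1a, the enzyme that limits phosphatidylcholine synthesis, rose by 0.35. These genes are expressed in many cell types, and the arrays do not separate those types.

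Of 26 genes of surfactant processing, secretion and clearance, 17 were higher and 1 lower from 1 to 8 wk, with a median of 0.40, and 17 were higher and 2 lower from 1 to 4 wk. Adgrf5, a receptor that restrains the surfactant pool, rose by 0.87 (SE 0.06), from 8646 ± 597 (n = 4) to 15820 ± 699 (n = 5). The 1 lower gene, Nedd4, fell by 0.82, from 9102 ± 347 (n = 4) to 5145 ± 385 (n = 5). Nedd4l, a ubiquitin ligase, rose by 0.96, Syt7, a calcium sensor of exocytosis, by 0.85, and Pparg, a nuclear receptor that alveolar macrophages need to clear surfactant, by 1.53 from a mean signal of only 48.8. Csf2ra and Csf2rb, the subunits of the GM-CSF receptor, which macrophages need for the same task, rose by 0.64 and 0.54. Ctsh, a protease that acts beside napsin A on surfactant protein precursors, rose by 0.35 from 1 to 4 wk, while its change of 0.15 from 1 to 8 wk did not pass the test.

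Of 31 lung epithelial regulators 11 were higher and 6 lower from 1 to 8 wk, with a median of 0.14, where 22% of all genes were higher and 21.9% lower. Cebpd, a transcription factor, rose by 2.28 (SE 0.16, limma adjusted p = 7.76e-08), from 1167 ± 193 (n = 4) to 5739 ± 811 (n = 5). Klf2 and Ehf rose by 1.21 and 1.01, Foxa1 by 0.61 and Cebpa by 0.60. The 6 lower genes were Id2 (-0.83), Elf5 (-0.81), Nfib (-0.72), Hif1a (-0.58), Foxp2 (-0.54) and Gata6 (-0.48). The probe set of Nkx2-1 lay between 153 and 160 in group mean at the 3 ages, close to the level needed for a test, and its change of 0.07 did not pass.

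Etv5 was set beside genes of the FGF and ERK pathway that it belongs to, of which 3 of 21 were higher and 6 lower from 1 to 8 wk, with a median of -0.02. Over all genes tested 22% were higher and 21.9% lower, with the same median. Its closest relative on this list, Etv4, fell by 1.60 (SE 0.47, limma adjusted p = 0.0133), from 170 ± 27.8 (n = 4) to 55.0 ± 38.8 (n = 5), the latter below the level needed for a test. The ligands Fgf18 and Fgf9 fell by 2.05 and 1.22. The feedback inhibitors Spry4 and Spry1 fell by 0.80 and 0.41, while Spry2 (0.18) and Dusp6 (-0.09) did not pass the test. Egr1, an immediate early gene, rose by 2.10.

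In kidney, 7 of the 9 genes were far below their lung level at every age, and Napsa and Abca3 were not. At 1 wk 8 of the 9 were higher in lung than in kidney, against 25% of the 14955 genes tested over all organs, and 1 was lower, against 24.1%. At 4 wk 7 were higher, against 35.5%, and 1 was lower, against 27.7%, and at 8 wk 7 were higher, against 35.5%, and 1 was lower, against 29%. In heart all 9 were lower than in lung at both ages: 31.7% of genes were higher in lung than in heart at 1 wk and 39.7% at 4 wk. The 9 genes were listed as genes of a lung cell type, so these counts describe the list and are no test of it. A gene entered these comparisons when its mean in any of the 8 groups reached 117.9. Napsa, with heart means of 84.9 and 107, entered through the other organs.

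**Figure D4:**
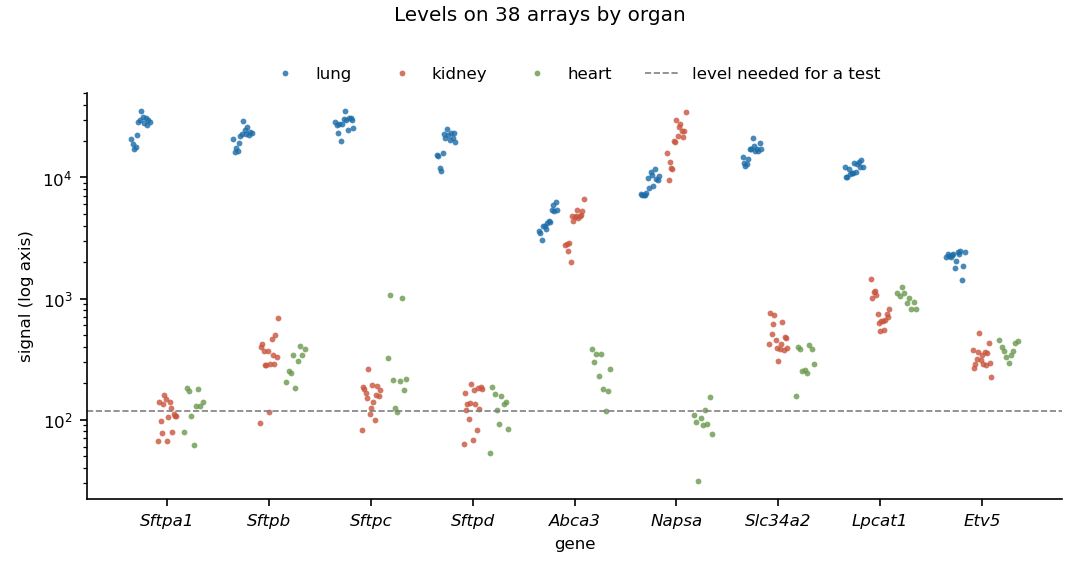
Signal on a log axis of the 9 genes on the 38 arrays used, by organ; within an organ the points run from the youngest to the oldest arrays, and the dashed line is the signal of 117.9 needed for a test. Kidney reaches or exceeds lung for Abca3 and Napsa alone, and 2 heart arrays stand out for Sftpc.

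Of the surfactant proteins, Sftpa1 had signals of 66.4 to 159 on the 15 kidney arrays and 61.7 to 182 on the 9 heart arrays. Sftpd lay between 63.3 and 197 in kidney and between 52.9 and 186 in heart. Their levels outside the lung are near the level needed for a test. The difference of Sftpa1 between lung and kidney was 7.34 at 1 wk (SE 0.23), 7.76 at 4 wk (SE 0.22) and 7.90 at 8 wk (SE 0.22) on the log2 scale, and since the kidney values lie near the background of the array, the fold is set in part by the offset. Sftpc differed by 7.33 to 7.40 and Sftpd by 6.71 to 7.14. Sftpb, at 94.3 to 692 in kidney, differed by 5.81 to 6.31.

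Sftpc on the heart arrays was 322.5, 1072, 213 and 125 at 1 wk and 116, 211, 1013, 175 and 216 at 4 wk. Heart 1 wk replicate 2 and heart 4 wk replicate 3 stood apart from the rest. On these same arrays Scgb1a1, the secretoglobin of airway club cells, was 1145 and 1657, against 6.1 to 107 on the other 7 heart arrays used. Ager, a defining gene of alveolar type 1 cells, was 151 and 23.1 on them, against 27.2 to 66.1 on the others. Other lung genes did not all stand out there. Sftpa1 was 182 and 180, against 61.7 to 173 on the other heart arrays, and Sftpd was 186 and 135, against 52.9 to 163. Sftpb was 251 and 403, against 183 to 383, and the lung chemokine gene Cxcl15 was 267 and 147, against 104 to 248. Whether lung RNA on these arrays has a part in this was not tested. Sftpc was higher in lung than in heart by 6.34 (SE 0.44) at 1 wk and 6.72 (SE 0.39) at 4 wk.

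Napsa was the only one of the 9 that was higher in kidney. Its kidney signals were 15930, 9599, 13400, 11910 and 11850 at 1 wk, 20170, 19760, 29730, 21940 and 26220 at 4 wk, and 27700, 24000, 21600, 24430 and 34530 at 8 wk. Every kidney array exceeded every lung array of its age, as for 19.9%, 22.2% and 25% of all genes tested at 1, 4 and 8 wk. Lung minus kidney was -0.78 at 1 wk (SE 0.21, limma adjusted p = 0.002), -1.32 at 4 wk (SE 0.19, limma adjusted p = 3.53e-07) and -1.40 at 8 wk (SE 0.19, limma adjusted p = 1.08e-07). At 1 wk the direction turned on the mean over both probe sets of the gene, to 0.09 (adjusted p = 0.769). In heart Napsa had signals of 31.4 to 154, and its change with age was not tested there.

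Abca3 was measured at 2776, 2846, 2490, 2869 and 2004 in kidney at 1 wk, at 4809, 4346, 4682, 4768 and 5366 at 4 wk, and at 4622, 4764, 4917, 5281 and 6635 at 8 wk. Kidney lay below all lung arrays of 1 wk, as for 20.7% of all genes tested, and overlapped lung at the later ages. Lung minus kidney was 0.44 at 1 wk (SE 0.17, limma adjusted p = 0.0342), a call that was lost without kidney 1 wk replicate 3 or 5 or lung 1 wk replicate 1, 2 or 5, with adjusted p-values up to 0.105. At 4 and 8 wk it was -0.22 and 0.12, with adjusted p-values of 0.256 and 0.53. At 8 wk lung was called higher with quantile normalization (0.41, adjusted p = 0.0362) and on the mean over all probe sets (0.35, adjusted p = 0.00191). In heart Abca3 lay between 117 and 383.

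Slc34a2 had signals of 305 to 758 in kidney and 155 to 412 in heart, and was higher in lung than in kidney by 4.45, 5.44 and 5.17 at the 3 ages. Its relatives showed the reverse order of organs. Slc34a1, the main phosphate cotransporter of the renal proximal tubule, had kidney signals of 18730 ± 965, 26810 ± 3173 and 30330 ± 5100 (SD, n = 5 each) and lung means of 116 to 126. Slc34a3 had kidney signals of 658 ± 97.4, 4127 ± 557 and 3483 ± 349 (n = 5 each), with lung means of 89.4 to 116. These 3 probe sets are compared across organs here and not with each other.

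Lpcat1 had kidney signals of 540 to 1450 and heart signals of 823 to 1239, and Etv5 lay at 224 to 524 and 295 to 454. Lung exceeded kidney by 3.23 to 4.19 for Lpcat1 and by 2.54 to 2.76 for Etv5, the smallest differences after those of Napsa and Abca3.

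The changes with age were also measured in kidney. From 1 to 4 wk 2 of the 9 rose in kidney, against 17.1% of all genes tested there, and 2 fell, against 25.1%. Abca3 rose by 0.89 (SE 0.12, limma adjusted p = 2.39e-05) and Napsa by 0.91 (SE 0.16, limma adjusted p = 2.57e-04). For both, all arrays of 4 wk lay above all of 1 wk, as for 12% of all genes tested in kidney. From 4 to 8 wk none of the 9 was called, against 0.61% of all genes: limma called 84 genes in that step, 1094 had an unadjusted p under 0.05, and of the 9 none did. From 1 to 8 wk Abca3 and Napsa were higher (19.3% of all genes were) and Lpcat1 was lower (27.7% were). The summed signal of 10 proximal tubule markers was 104500 to 131300 at 1 wk, 166000 to 224900 at 4 wk and 179800 to 251700 at 8 wk in the same kidney arrays, and its part in the rise of Abca3 and Napsa was not tested. The 3′ to 5′ difference of beta-actin in kidney was 0.34 to 0.51 at 1 wk, 0.61 to 1.43 at 4 wk and 0.73 to 0.99 at 8 wk. In this sign of RNA integrity the kidney arrays of 1 wk thus did not overlap the later ages, while that of Gapdh overlapped. Its part in the kidney changes, and in their comparison with lung, was not tested.

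**Figure D5:**
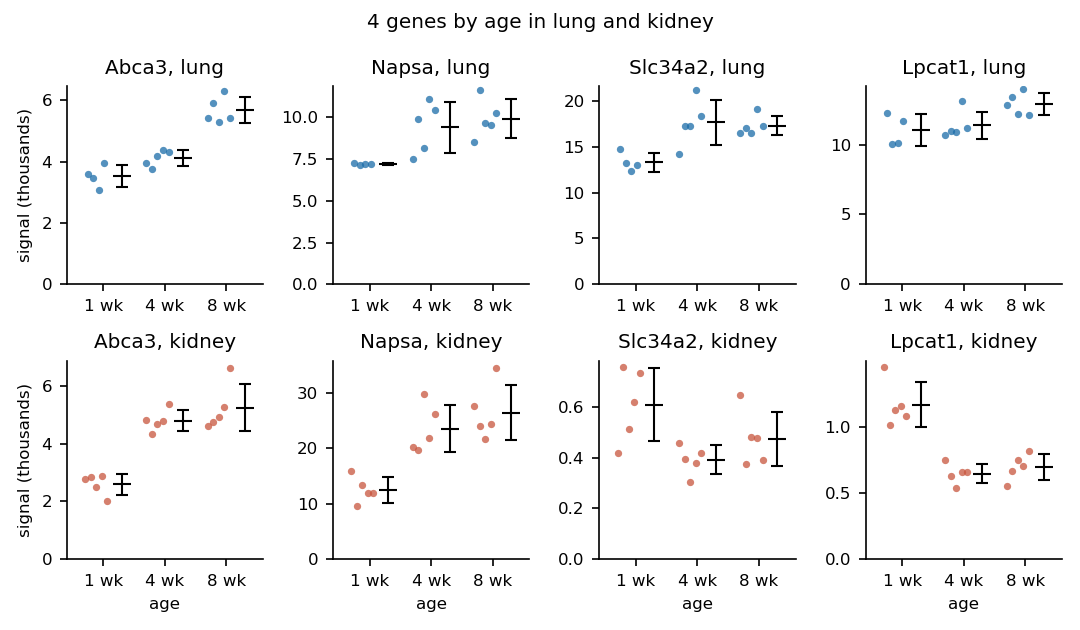
Signal (k, arbitrary units) of Abca3, Napsa, Slc34a2 and Lpcat1 on each array of lung (top) and kidney (bottom) by age, with the mean and SD beside the points; each panel has its own axis from 0. Abca3 and Napsa rise in both organs, while Slc34a2 and Lpcat1 are lower at 4 than at 1 wk in kidney but not in lung.

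Lpcat1 fell in kidney. Its signals were 1450, 1012, 1124, 1152 and 1080 at 1 wk, 746, 625, 540, 659 and 658 at 4 wk, and 548, 666, 745, 703 and 813 at 8 wk, so that all later arrays lay below all those of 1 wk. Of all genes tested in kidney, 18% lay wholly below their 1 wk arrays at 4 wk and 20.8% at 8 wk. Lpcat1 fell by 0.83 from 1 to 4 wk (SE 0.12, limma adjusted p = 5.71e-05) and by 0.73 from 1 to 8 wk (SE 0.12, limma adjusted p = 1.71e-04). On the mean over all its probe sets, which include those dim in lung, both calls were lost, at -0.27 and -0.23. In heart Lpcat1 fell by 0.32 from 1 to 4 wk (SE 0.11, limma adjusted p = 0.0489), with 14.5% of all genes lower there; the call was lost without any 1 of the heart arrays other than 4 wk replicate 2, with adjusted p-values up to 0.127.

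Slc34a2 was 419, 758, 513, 618 and 733 in kidney at 1 wk, 457, 393, 305, 380 and 419 at 4 wk, and 645, 376, 480, 475 and 391 at 8 wk. The arrays of 1 and 4 wk overlapped through the lowest of 1 wk. It fell by 0.60 from 1 to 4 wk (SE 0.18, limma adjusted p = 0.0123), and the change of -0.34 from 1 to 8 wk (SE 0.18, limma adjusted p = 0.121) passed only without kidney 1 wk replicate 1 (-0.47, adjusted p = 0.0322) or kidney 8 wk replicate 1 (-0.46, adjusted p = 0.0402).

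The difference of the changes between organs was itself tested, in 1 fit of the 38 arrays. From 1 to 4 wk 2 of the 9 genes moved up more in lung than in kidney, against 16.3% of all genes, and 1 moved up less, against 9.98%. The 2 were Lpcat1 (0.88, SE 0.15, limma adjusted p = 1.89e-05) and Slc34a2 (0.99, SE 0.27, limma adjusted p = 0.006), and the third was Abca3 (-0.66, SE 0.24, limma adjusted p = 0.0387). From 1 to 8 wk Lpcat1 (0.96, SE 0.15, limma adjusted p = 3.83e-06) and Slc34a2 (0.72, SE 0.27, limma adjusted p = 0.0434) were called, against 18.6% of all genes. The Lpcat1 differences were not called on the mean over its probe sets, which include those dim in lung (0.34 and 0.23). The Abca3 call was lost without any 1 of 10 of the 19 arrays, with adjusted p-values up to 0.0829, and that of Slc34a2 from 1 to 8 wk without any 1 of 14 of the 19 arrays of those ages, up to 0.0854. Between lung and heart 1 of the 9 genes, Abca3, was called for a difference of changes (0.80, SE 0.25, limma adjusted p = 0.0214), against 9.9% of all genes. Its change was 0.23 in lung and -0.57 in heart (SE 0.27, limma adjusted p = 0.16), where its mean signals were only 314.3 and 216.5. The adjusted p of the difference was 0.0512 without lung 1 wk replicate 3. On the mean over all probe sets of a gene the call of Abca3 was lost (0.35, adjusted p = 0.0982) and Sftpa1 was called in its place (1.02, adjusted p = 0.0328); with an offset of 64 both were called (Sftpa1 0.70, adjusted p = 0.0374). Without heart 1 wk replicate 1 Sftpa1 (0.92, adjusted p = 0.0407) and Sftpd (1.01, adjusted p = 0.0366) passed as well. For Sftpc the SE of these differences was 0.57 to 0.59, against 0.15 for Lpcat1, so that only a larger difference could be called for it.

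Genes outside the set that were most like it were found by the correlation with the mean of the 9 genes, each scaled over the arrays to mean 0 and SD 1. Over the 38 arrays, where the organs set most of the pattern, the highest were Cadm1, a cell adhesion gene (0.993), Ager, of alveolar type 1 cells (0.990), Pof1b (0.986), Slco2a1 (0.983), Icam1 (0.983), Pi4k2b (0.982), Aqp5, a water channel of alveolar type 1 cells (0.982), and Gprc5a (0.982). Over the 14 lung arrays alone they were Ciao1 (0.962), Podxl (0.942), Mid1ip1, which acts in fatty acid synthesis (0.932), Npc2, a lysosomal cholesterol carrier (0.931), Tmem159 (0.930), Hint2 (0.929), Lgi3 (0.924) and Niban2 (0.921). The arrays share their scaling, and these values have no test. Lgi3 is the gene next to Sftpc in RefSeq (GRCm38.p6); it rose by 0.40 from 1 to 8 wk in lung (limma adjusted p = 0.00557), an interval over which the change of Sftpc was 0.09.

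Of 28 tested relatives of the 9 genes 12 were higher and 7 lower in lung from 1 to 8 wk, with a median of 0.15, beside 22% and 21.9% of all genes. Itm2a fell by 1.98, from 6738 ± 969 (n = 4) to 1703 ± 287 (n = 5), while Abca8a rose by 1.71 and Abca4 by 1.57. Abca1, the cholesterol exporter, rose by 0.28 from 1 to 4 wk and fell by 0.39 from 4 to 8 wk, so that its change over both was -0.10 and was not called. The acyltransferases Lpcat2 (-0.17) and Lpcat3 (0.17) did not pass either.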

How the data were processed

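The data were array intensities of whole lung, kidney and heart on 40 arrays. The deposited intensity values are linear, with a trimmed mean (2% left out at each end) of 500 on each array. The submitters' processing notes name RMA and Partek 6.6 without a role, and the method that summarised probes into these values is not given in the sources used here. Of 45101 probe sets, 34958 carried 1 gene symbol, 932 several and 9211 none, and only the first were named. Each gene was read on its probe set with the highest mean over the 40 arrays.

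Signals were tested as log2(signal + 16) with limma 3.58.1 (lmFit and eBayes) in R 4.3.3, with version 1.17.8 of data.table; figures used Python 3.11.15 and matplotlib 3.10.9. Genes whose highest group mean lay under 117.9 (percentile 40 of all signals) were not tested. Ages were compared within an organ, and organs in 1 fit of 38 arrays. The lung fit was tried on simulated data for the comparison of 1 and 8 wk alone, with independent noise on each array. The other fits were not tried in this way. Alternatives covered the offset, quantile normalization, the filter, the probe set rule, the replicate number as a block and each array left out. The labels describe the arrays of a group as separate samples and do not say which organs came from the same animal. Same-numbered lung arrays of different ages had correlations of deviations from -0.09 to 0.25 (13 pairs, median 0.03), so the numbers were not taken to pair them. Whole lungs of different ages cannot come from 1 animal, so this check could not show which organs share an animal. The sample descriptions hold a further number that recurs between organs of an age, and whether it marks an animal was not tested. With age and this number as a random block in the fit of 38 arrays, the correlation within blocks was 0.0141. The 10 genes and all lists were chosen with earlier results of these data known. Genes of the lists were named by the size of their called change from 1 to 8 wk in lung; others are named for their role or, where said, after their values were seen.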

Additional observations from a re-analysis of the deposited data

Results flagged for a closer look

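In 5 of 72 groups of a gene, organ and age, 1 array lay far from the rest by Dixon's criterion, which chance meets in about 1 of 20 groups. On kidney 1 wk replicate 1 Sftpb was 94.3, against 281.8 to 421.5 on the other arrays, and Sftpc was 82.5, against 150.7 to 186.7. On heart 4 wk replicate 3 Sftpc was 1013, against 116.1 to 216.4. On heart 1 wk replicate 3 Napsa was 31.4, against 95.2 to 108.9. On lung 4 wk replicate 4 Lpcat1 was 13110, against 10710 to 11190.

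The change with age differed between organs, by a test of the difference in limma, for 3 genes. From 1 to 4 wk the log2 change in lung minus that in kidney was -0.66 for Abca3, 0.99 for Slc34a2 and 0.88 for Lpcat1. From 1 to 8 wk it was 0.72 for Slc34a2 and 0.96 for Lpcat1. The change of Abca3 in lung from 1 to 4 wk, 0.23, exceeded that in heart, -0.57 and not called, by 0.80. Of these calls, those of Lpcat1 were not made on the mean over its probe sets. Those of Abca3, and that of Slc34a2 from 1 to 8 wk, were lost without certain single arrays.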

How the results depend on the processing

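Of 438 values of counts under alternatives other than leaving out an array, 403 stayed within 1.5 times the main value. Counts below are of the 9 genes unless said otherwise, and the cause of a change was not tested. With both arrays kept as labelled, the genes higher in lung were 0 from 1 to 4 wk (main 6), 0 from 4 to 8 wk (main 1) and 0 from 1 to 8 wk (main 7), the gene lower in heart was 0 (main 1), those lower in lung than kidney were 0 at each age (main 1), the change differences from kidney were 0 in each count, all genes called were 15 in lung from 4 to 8 wk (main 280) and 4493 between lung and heart at 1 wk (main 7830), Abca3 turned to -0.44 between lung and kidney at 1 wk, and its change difference from 1 to 4 wk turned to 0.22. In 1 fit of all 38 arrays, 1, 0 and 3 genes were higher in lung in these steps and 127 of all genes were called from 4 to 8 wk. With the mean over all probe sets, 0 were higher in lung from 4 to 8 wk, 1 (main 2) and 0 (main 1) were lower in kidney from 1 to 4 and 1 to 8 wk, 0 were lower in lung than kidney at 1 wk, where Napsa turned to 0.094, and 1 (main 2) moved up more in lung than kidney in each interval. Without the filter, 143 of all genes were called in lung from 4 to 8 wk, and 0 were lower in heart, as with quantile normalization. With the replicate block, 163 of all genes were called in lung from 4 to 8 wk, 0 were lower in heart, and 5 and 6 were higher in lung from 1 to 4 and 1 to 8 wk: Abca3 (adjusted p = 0.0971) and Lpcat1 (adjusted p = 0.0935) lost those calls. Change differences from kidney over 1 to 8 wk were higher for 1 (main 2) with offset 1, quantile normalization, no filter or the replicate block, and lower for 1 (main 0) with offset 64. The Abca3 difference from 1 to 4 wk was not called with offset 1 or quantile normalization (0, main 1). With offset 64, 2 (main 1) moved up more in lung than heart.

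Only arrays of the groups compared were left out, 1 at a time. Leaving out 1 array gave 115 to 227 of all genes called in lung from 4 to 8 wk, the lowest without lung 4 wk replicate 2. Each was below the 280 with all arrays, and kidney gave 53 to 82 (main 84). It gave 4 to 6 genes higher in lung from 1 to 4 wk, 4 without 4 wk replicate 4 or 5, and 6 to 7 from 1 to 8 wk. Lower counts were 1 to 2 in kidney from 1 to 8 wk and 0 to 1 in heart. Change differences were 1 to 2 higher over 1 to 8 wk and 0 to 1 lower over 1 to 4 wk against kidney, and 0 to 3 higher against heart. Abca3 in heart passed without heart 4 wk replicate 1 (-0.76, limma adjusted p = 0.044). Signals near 117.9, as of Sftpa1 and Sftpd outside lung, limit what folds between organs show.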
